A study of Mus musculus with 39 samples.

Results

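Gene expression in the whole mouse testis was compared between 11.5 and 7.5 days post partum (dpp) in vivo. These ages span the days in which the first germ cells of a male mouse enter meiotic prophase. The comparison used 6 of the 39 samples of the series, chosen by their labelled source: 3 arrays of testes sampled in vivo at 11.5 dpp and 3 arrays of testes sampled in vivo at 7.5 dpp. Both groups were male Mus musculus testis with no treatment labelled, and the labels give no strain, genotype or number of animals per sample. The rest of the series holds other in vivo ages and testes kept in organ culture, and here it served to estimate the spread between replicates and to place levels in time. RNA was hybridized to 1-colour Illumina bead arrays, which report a brightness for each probe. The labels do not say that the 3 samples of an age came from separate animals, so p-values need not measure the spread between animals. They measure only the spread between samples of a group, pooled over all groups of the series, organ culture included. The whole comparison was repeated without replicate 1 of 11.5 dpp.

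Meiotic prophase begins when a spermatogonium, the mitotic germ cell, answers retinoic acid made in the testis by switching on Stra8 and leaving the mitotic cycle. The cell then builds cohesin-rich chromosome axes, cuts its own DNA with SPO11, repairs the cuts from the homologous chromosome, anchors its telomeres in the nuclear envelope and zips the homologues together with the synaptonemal complex. In the first wave of spermatogenesis these steps run nearly in step in all tubules, while Sertoli cells stop dividing and mature around the germ cells.

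Values are given as normalized log2 signal, in the order replicate 1, 2 and 3, so that 1 unit is a 2-fold change. Differences are 11.5 minus 7.5 dpp with their standard error (SE) from a limma model of all 38 usable arrays, n = 3 for each age. To be called higher or lower, a gene needed a difference of at least 1 on the log2 scale and a p, adjusted by Benjamini and Hochberg's method over all genes, of less than 0.05. A probe counted as detected on an array at a detection p below 0.01. Where all probes of a gene were below detection on all arrays of one age, the fold is a lower bound against the dimmest detected signal of each array.

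Between 39.3% and 43.1% of probes were detected on the 6 arrays. Before normalization replicate 1 of 7.5 dpp had the highest mean signal, 789 against 447 to 520 on the others, and the highest median, 102 against 76.6 to 83.0. Arrays of 7.5 dpp correlated with each other at 0.976 to 0.990. At 11.5 dpp replicates 2 and 3 correlated at 0.986, and replicate 1 stood apart at 0.967 to 0.970. Between the ages arrays correlated at 0.94 to 0.981. Replicate 2 of 11.5 dpp was the nearest to the younger arrays, at 0.965 to 0.981, against 0.967 with replicate 1 of its own age. Genes that define the testis were detected on all 6 arrays, among them Ddx4 of germ cells, Sox9 and Amh of Sertoli cells, Insl3 of Leydig cells and Acta2 of peritubular muscle. Of 17 listed genes of epididymis, rete testis and fat, 5 were measured, and their mean log2 signal ran from 4.93 to 5.54 over the 6 arrays. None of the 5 was called, which says little with 4.38% of all genes called.

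Of 12518 genes tested, 302 (2.41%) were higher and 246 (1.97%) were lower at 11.5 dpp, 4.38% in either direction. The median difference over all genes was 0.01. The 3 arrays of one age lay wholly above those of the other for 295 of the higher and 243 of the lower genes. The share over all genes tested was not counted, so these counts add no support to the calls. At an unadjusted p below 0.05, 1654 genes were higher and 1481 lower. Larger changes were mostly increases, since 68 higher but 22 lower genes differed at least 4-fold, and 21 against 3 differed at least 8-fold. The probe used was below detection on every array of 7.5 dpp for 68 of the higher genes, and on every array of 11.5 dpp for 22 of the lower genes. Without replicate 1 of 11.5 dpp 216 of 12495 genes (1.73%) were higher and 172 (1.38%) lower, 3.11% in either direction, and 188 and 142 of these were the same genes. Without replicate 1 of 7.5 dpp there were 208 and 155, and without replicate 2 of 11.5 dpp 404 and 376. The authors' deposited log2 values gave 80 higher and 64 lower genes. In whole tissue, fewer cells of a type and less RNA per cell cannot be told apart.

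**Figure D1:**
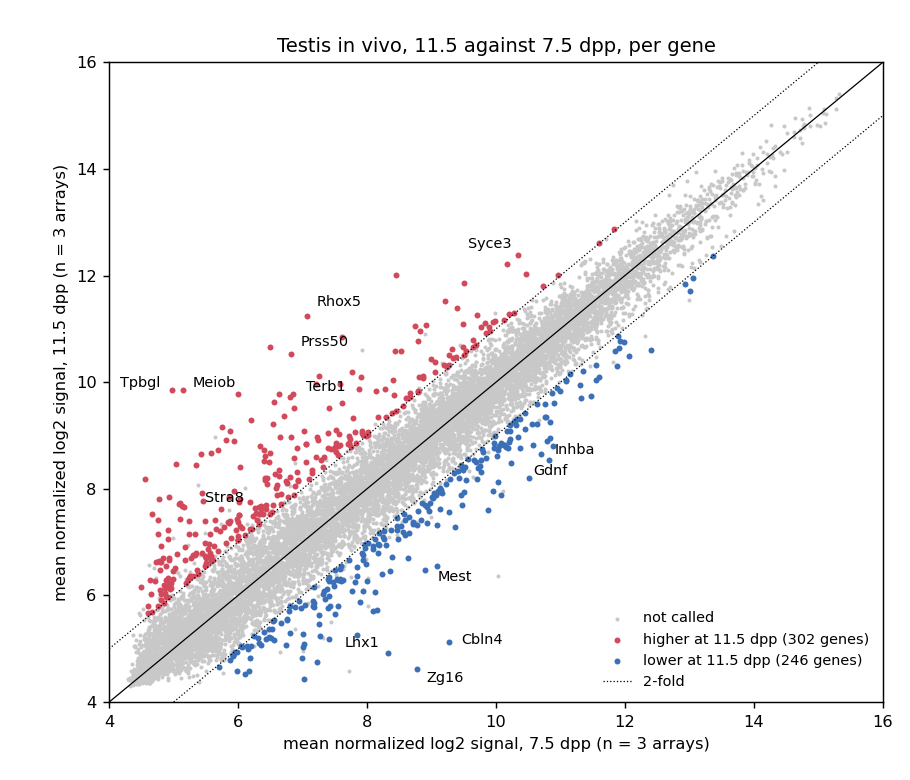
Mean normalized log2 signal of each of 12518 genes at 7.5 dpp (horizontal axis) and 11.5 dpp (vertical axis), n = 3 arrays each. Red points are the 302 genes called higher, blue points the 246 called lower and grey points the rest; the solid line marks equal levels and the dotted lines a 2-fold difference. Meiob and Tpbgl lie farthest above the line, Zg16 and Cbln4 farthest below it.

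The largest increases, ranked among called genes whose groups did not overlap, were those of Tpbgl and Meiob. Tpbgl, a gene named for its likeness to a trophoblast glycoprotein, stood at 4.81, 4.73 and 5.38 at 7.5 dpp and 11.09, 8.30 and 10.18 at 11.5 dpp. Meiob, whose protein coats single-stranded DNA during meiotic recombination, stood at 4.73, 5.09 and 5.59 at 7.5 dpp and 10.47, 8.40 and 10.70 at 11.5 dpp. Both were below detection on every array of 7.5 dpp, and on both the second replicate was the lowest of the 11.5 dpp arrays. Both were at least 18.5-fold higher at 11.5 dpp (Tpbgl 4.88 ± 0.68, limma adjusted p = 1.26e-05; Meiob 4.72 ± 0.50, limma adjusted p = 1.97e-07). Rhox5, an androgen-responsive homeobox gene of Sertoli cells, stood at 5.83, 8.02 and 7.36 at 7.5 dpp and 11.67, 10.86 and 11.17 at 11.5 dpp and rose by 4.16 ± 0.47, limma adjusted p = 5.56e-07. Replicate 1 was its lowest array at 7.5 dpp. Prss50, which encodes a testis protein of the serine protease family, stood at 5.91, 7.03 and 7.52 at 7.5 dpp and 10.86, 9.76 and 10.96 at 11.5 dpp and rose by 3.71 ± 0.33, limma adjusted p = 3.33e-08.

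The other genes among the 15 largest increases rose by between 3.11 and 4.15. They include the meiotic gene Spdya and Gal3st1, a sulphotransferase that makes the sulphated lipid of spermatocytes, at 5.11, 5.77 and 6.55 at 7.5 dpp and 9.30, 8.06 and 9.38 at 11.5 dpp. Defb45, a beta defensin, was detected at both ages, with 7.39, 9.26 and 8.69 at 7.5 dpp and 12.47, 11.92 and 11.61 at 11.5 dpp. Cacng5, a calcium channel subunit, stood at 4.81, 5.14 and 8.06 at 7.5 dpp and 9.30, 9.53 and 10.52 at 11.5 dpp, and replicate 3 was by far the highest array of 7.5 dpp. Mybpc1, which encodes a myosin-binding protein, stood at 4.71, 5.87 and 5.71 at 7.5 dpp and 9.48, 8.13 and 8.36 at 11.5 dpp. Among loci known only by a number, 4930455G09Rik stood at 4.56, 4.47 and 4.61 at 7.5 dpp and 8.61, 7.42 and 8.54 at 11.5 dpp, at least 5.81-fold higher, and 4930524B15Rik at 5.44, 4.84 and 4.84 at 7.5 dpp and 8.80, 7.16 and 9.47 at 11.5 dpp, at least 7.09-fold higher, with a difference of 1.66 on its second probe. Both were undetected at the younger age. Gm648 stood at 5.09, 6.31 and 5.87 at 7.5 dpp and 9.91, 8.29 and 9.27 at 11.5 dpp. For 1700018G05Rik the values were 6.86, 8.12 and 7.87 at 7.5 dpp and 11.23, 10.60 and 10.68 at 11.5 dpp. Casp9, the initiator caspase of the mitochondrial death pathway, is the exception in quality. Its signal was 9.85, 4.92 and 4.74 at 7.5 dpp and 10.45, 10.95 and 10.56 at 11.5 dpp, so that replicate 1 of 7.5 dpp sat near the 11.5 dpp arrays and the other arrays of that age were below detection. The call (4.15 ± 1.26, limma adjusted p = 0.0308) was lost in 5 of 6 fits that left out 1 array, and the other 2 kept probes of Casp9 differed by -0.52 and -0.68.

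Genes of meiotic entry and prophase were read from 6 lists that hold 110 genes. A kept probe existed for 80 of these genes. Like all gene lists used here, the 6 were chosen with earlier results of these data known. Shares set beside those of all genes therefore describe the lists and are not an independent test. Of these 80, 25 were higher (31.2%) and 1, Trip13, was lower, against 2.41% and 1.97% of all genes; the median difference was 0.33. Without replicate 1 of 11.5 dpp 21 were higher, 20 of them the same genes, against 1.73% of all genes. The increases ran from 1.07 to 4.72. For 23 of the 25 the groups did not overlap, against 295 of all 302 higher genes. All 25 were detected on all arrays of 11.5 dpp. For 5 the probe used was below detection on every array of 7.5 dpp, against 68 of the 302. The 25 also shared an order between replicates: replicate 2 was the lowest array of 11.5 dpp in 25 of 25, and replicate 3 was the highest array of 7.5 dpp in 22. Over all 302 higher genes replicate 2 was the lowest array of 11.5 dpp in 226. Replicate 1 was the lowest array of 7.5 dpp in 19 of the 25 and in 214 of the 302. The place of replicate 3 over all 302 was not counted. Leaving out each array in turn gave 21 to 26 higher members, and the authors' deposited log2 values gave 11.

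**Figure D2:**
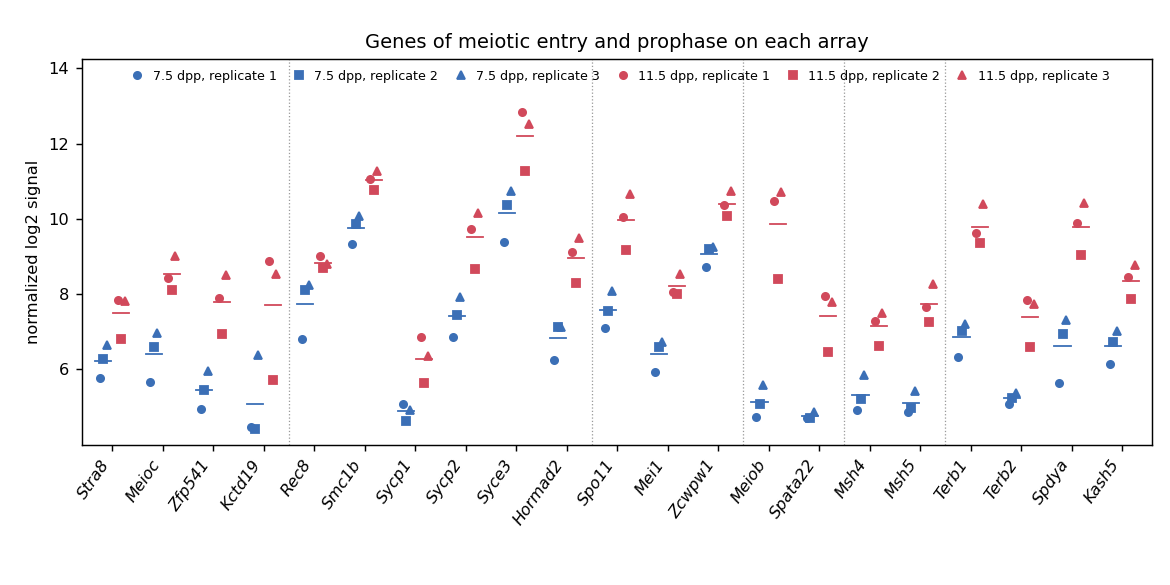
Normalized log2 signal (vertical axis) of 21 genes of meiotic entry and prophase on each array, blue for 7.5 dpp and red for 11.5 dpp, with the replicate shown by the shape of the point and the mean of 3 arrays by a bar. Dotted lines separate the lists, from the left entry regulators, axis and synaptonemal complex, double-strand breaks, strand invasion, crossover and telomere genes. The square of 11.5 dpp (replicate 2) is the lowest red point throughout.

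Among 17 measured genes listed as regulators of meiotic entry 4 were higher (23.5%, against 2.41% of all genes) and none was lower (median 0.23). The 4 include Zfp541, a protein of spermatocyte chromatin, and its partner Kctd19, so the count does not describe entry alone. Without replicate 1 of 7.5 dpp or without replicate 3 of 11.5 dpp 2 were higher. Stra8, the retinoic acid-induced factor that starts the programme, was already detected at 7.5 dpp, with 5.78, 6.29 and 6.64 at 7.5 dpp and 7.85, 6.81 and 7.83 at 11.5 dpp. The groups did not overlap, although replicate 2 of 11.5 dpp was only just above replicate 3 of 7.5 dpp. Stra8 rose by 1.26 ± 0.34, limma adjusted p = 0.0144. Stra8 was not called without replicate 1 of 7.5 dpp, replicate 1 of 11.5 dpp or replicate 3 of 11.5 dpp (limma adjusted p from 0.0764 to 0.109). Meioc, a partner of the RNA helicase YTHDC2 that keeps germ cells in the meiotic programme, stood at 5.67, 6.59 and 6.96 at 7.5 dpp and 8.44, 8.12 and 9.02 at 11.5 dpp and rose by 2.12 ± 0.36, limma adjusted p = 0.000179. Zfp541, a zinc-finger protein of spermatocyte chromatin, stood at 4.96, 5.46 and 5.95 at 7.5 dpp and 7.90, 6.93 and 8.50 at 11.5 dpp and rose by 2.32 ± 0.47, limma adjusted p = 0.00128. Kctd19, its partner, stood at 4.46, 4.42 and 6.38 at 7.5 dpp and 8.88, 5.72 and 8.53 at 11.5 dpp. On Kctd19 the groups overlapped, because replicate 2 of 11.5 dpp lay below replicate 3 of 7.5 dpp (difference 2.62 ± 0.69, limma adjusted p = 0.0126). Kctd19 was not called without replicate 1 of 7.5 dpp, replicate 2 of 7.5 dpp, replicate 1 of 11.5 dpp or replicate 3 of 11.5 dpp (limma adjusted p from 0.0646 to 0.11). Dazl, the RNA-binding protein that licenses germ cells for meiosis, stood at 11.14, 11.27 and 11.67 at 7.5 dpp and 11.89, 12.25 and 12.60 at 11.5 dpp. All 3 arrays of 11.5 dpp were above those of 7.5 dpp, but the difference of 0.89 ± 0.20 (limma adjusted p = 0.00429) was under 2-fold and was not called. A second, dimmer kept probe of Dazl, detected on all arrays of both ages, differed by 1.11. The partner of STRA8, Meiosin, was not measured here.

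Cohesin and synaptonemal complex genes had the highest median of the lists, 1.11. Of 12 measured members 8 were higher (66.7%, against 2.41% of all genes) and 1 was lower (8.33%, against 1.97%). Without replicate 1 of 11.5 dpp 5 were higher. Smc1b, the meiotic SMC subunit of cohesin, was detected at both ages, with 9.34, 9.87 and 10.08 at 7.5 dpp and 11.05, 10.78 and 11.26 at 11.5 dpp, and rose by 1.27 ± 0.23, limma adjusted p = 0.000433. Rec8, the meiotic kleisin that closes the cohesin ring, stood at 6.82, 8.11 and 8.25 at 7.5 dpp and 9.01, 8.69 and 8.81 at 11.5 dpp and rose by 1.11 ± 0.36, limma adjusted p = 0.0429. Replicate 1 of 7.5 dpp was well below the other arrays of its age. Rec8 lost its call without replicate 1 of 7.5 dpp, replicate 1 of 11.5 dpp, replicate 2 of 11.5 dpp or replicate 3 of 11.5 dpp (limma adjusted p from 0.0525 to 0.325). Stag3, another meiosis-specific cohesin subunit, stood at 10.50, 11.14 and 11.32 at 7.5 dpp and 11.63, 11.81 and 12.09 at 11.5 dpp, and its difference of 0.86 ± 0.32 (limma adjusted p = 0.0874) was not called.

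Of the synapsis genes, Syce3 of the central element stood at 9.39, 10.38 and 10.73 at 7.5 dpp and 12.84, 11.28 and 12.51 at 11.5 dpp. It rose by 2.04 ± 0.31, limma adjusted p = 4.4e-05, with all arrays of 11.5 dpp above those of 7.5 dpp. Sycp2 of the axial element stood at 6.86, 7.44 and 7.93 at 7.5 dpp and 9.74, 8.68 and 10.15 at 11.5 dpp and rose by 2.11 ± 0.39, limma adjusted p = 0.000516. Hormad2, an axis protein that marks unsynapsed chromosomes, stood at 6.24, 7.12 and 7.12 at 7.5 dpp and 9.12, 8.28 and 9.50 at 11.5 dpp and rose by 2.14 ± 0.35, limma adjusted p = 0.000126. Sycp1, the transverse filament that spans between homologues, was below detection at 7.5 dpp and dim at 11.5 dpp, with 5.08, 4.64 and 4.93 at 7.5 dpp and 6.86, 5.63 and 6.36 at 11.5 dpp. The fold was at least 1.55 (1.40 ± 0.30, limma adjusted p = 0.00281). The central element gene Syce2 stood at 6.35, 5.97 and 5.67 at 7.5 dpp and 7.94, 6.38 and 7.00 at 11.5 dpp, without overlap, and rose by 1.11 ± 0.33. Another, 4930447C04Rik (Six6os1), stood at 5.05, 4.82 and 5.86 at 7.5 dpp and 6.47, 5.50 and 6.99 at 11.5 dpp, where replicate 2 of 11.5 dpp lay below replicate 3 of 7.5 dpp, and rose by 1.07 ± 0.34. Both calls were lost in 4 of 6 fits without 1 array, at limma adjusted p up to 0.242 for Syce2 and 0.228 for 4930447C04Rik. Trip13, the ATPase that strips HORMA-domain proteins from axes, moved the other way, with 6.12, 5.97 and 6.34 at 7.5 dpp and 5.83, 4.42 and 4.87 at 11.5 dpp. It fell by 1.10 ± 0.28 (limma adjusted p = 0.0111), was detected on 3 arrays of 7.5 dpp and on 1 of 11.5 dpp, and was lowest on replicate 2. Trip13 lost its call without replicate 2 of 11.5 dpp or replicate 3 of 11.5 dpp (limma adjusted p from 0.0531 to 0.0773). Sycp3, Tex12, Hormad1 and Rad21l were not measured here.

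Genes listed under double-strand break formation gave 3 higher (37.5%, against 2.41% of all genes) and no lower members of 8 (median 0.20). Spo11, the enzyme that cuts the DNA, stood at 7.11, 7.55 and 8.08 at 7.5 dpp and 10.04, 9.17 and 10.67 at 11.5 dpp and rose by 2.38 ± 0.47, limma adjusted p = 0.00109. Mei1, required for those cuts, stood at 5.94, 6.59 and 6.74 at 7.5 dpp and 8.06, 8.01 and 8.54 at 11.5 dpp and rose by 1.78 ± 0.34, limma adjusted p = 0.000776. Zcwpw1, a reader of the histone marks that direct breaks to hotspots, stood at 8.73, 9.20 and 9.24 at 7.5 dpp and 10.36, 10.06 and 10.74 at 11.5 dpp and rose by 1.33 ± 0.19, limma adjusted p = 2.25e-05. On all of them every array of 11.5 dpp was above every array of 7.5 dpp, and the calls held in all 6 fits without 1 array. Rec114, which acts in the same step, did not differ beyond its error, with 8.07, 8.33 and 8.18 at 7.5 dpp and 8.51, 8.04 and 8.15 at 11.5 dpp (difference 0.04 ± 0.26, limma adjusted p = 0.957). Mei4 and the hotspot factor Prdm9 were not measured here.

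In strand invasion the broken end finds the homologue. Of its 21 measured members 4 were higher (19%, against 2.41% of all genes) and none lower (median 0.30). Meiob leads this list. Its partner Spata22 was below detection on every array of 7.5 dpp and stood at 4.72, 4.71 and 4.86 at 7.5 dpp and 7.96, 6.47 and 7.80 at 11.5 dpp, at least 3.39-fold higher (2.65 ± 0.42, limma adjusted p = 8.26e-05). 4930432K21Rik (Brme1), a meiotic recombination protein, stood at 7.67, 8.34 and 8.42 at 7.5 dpp and 10.18, 9.32 and 10.00 at 11.5 dpp and rose by 1.69 ± 0.23, limma adjusted p = 1.04e-05. Replicate 2 of 11.5 dpp was lowest on each. The partners Mnd1 and Psmc3ip, which act together in strand invasion, were detected at both ages without a called difference: Mnd1 stood at 9.21, 9.09 and 8.77 at 7.5 dpp and 9.87, 9.02 and 9.56 at 11.5 dpp (0.46 ± 0.32, limma adjusted p = 0.404), and Psmc3ip at 10.83, 10.63 and 10.12 at 7.5 dpp and 11.16, 10.55 and 10.85 at 11.5 dpp (0.33 ± 0.32, limma adjusted p = 0.579). Hsf2bp, the partner of BRME1, was detected on only 1 of the 6 arrays, with 4.45, 4.62 and 4.57 at 7.5 dpp and 4.76, 5.04 and 5.88 at 11.5 dpp (0.68 ± 0.31, limma adjusted p = 0.156). Dmc1, the meiotic recombinase, was not measured here.

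Crossover genes gave 2 higher (18.2%, against 2.41% of all genes) and no lower members of 11 (median 0.32). These were the 2 subunits of the clamp that holds recombination intermediates. Msh5 stood at 4.88, 4.98 and 5.43 at 7.5 dpp and 7.66, 7.27 and 8.27 at 11.5 dpp on a probe that was undetected at the younger age, and rose by 2.63 ± 0.36, limma adjusted p = 1.04e-05. Msh4 stood at 4.91, 5.21 and 5.86 at 7.5 dpp and 7.30, 6.63 and 7.51 at 11.5 dpp and rose by 1.82 ± 0.37, limma adjusted p = 0.00139. Tex11, an X-linked crossover factor, stood at 9.52, 9.75 and 10.21 at 7.5 dpp and 10.37, 10.11 and 10.32 at 11.5 dpp, a difference of 0.44 ± 0.24 (limma adjusted p = 0.267) that was not called. Msh5 had 4 probes on the array, of which 1 more, detected on 1 array of 7.5 dpp, differed by 1.80 and the others were below detection at both ages (0.12 and 0.20).

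Telomere genes gave 4 higher (36.4%, against 2.41% of all genes) and no lower members of 11 (median 0.30). All 4 calls held in each of the 6 fits without 1 array. Spdya, which activates CDK2 at telomeres, stood at 5.65, 6.93 and 7.32 at 7.5 dpp and 9.90, 9.03 and 10.41 at 11.5 dpp and rose by 3.14 ± 0.42, limma adjusted p = 8.83e-06. Terb1, which with TERB2 and MAJIN fixes telomeres to the inner nuclear membrane, stood at 6.34, 7.01 and 7.20 at 7.5 dpp and 9.61, 9.35 and 10.38 at 11.5 dpp and rose by 2.93 ± 0.31, limma adjusted p = 1.91e-07. Terb2 stood at 5.08, 5.24 and 5.38 at 7.5 dpp and 7.84, 6.60 and 7.75 at 11.5 dpp, undetected at the younger age, and rose at least 3.36-fold. Kash5, which couples the attached telomeres to dynein, stood at 6.14, 6.73 and 7.01 at 7.5 dpp and 8.45, 7.86 and 8.76 at 11.5 dpp and rose by 1.73 ± 0.39, limma adjusted p = 0.00357. Replicate 2 was again the lowest of the 11.5 dpp arrays for each. Majin was not measured here.

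Promoters were read for the meiotic genes that rose, because genes that move together can be set side by side at their start sites. Of 25 such genes 21 had an entry in a RefSeq table of promoters (build GRCm38.p6), each a window of 300 bases from 250 before to 50 after the start. Motifs were searched on both strands with any overlap counted: CNCCTCAG, described for STRA8, CACGTG, the E-box, and GCGGGAA, described for E2F factors. CNCCTCAG was in 5 of the 21 windows (23.8%), against 7.97% of all 27025 genes in the table and 9.26% of the tested genes with an entry. GCGGGAA was in 6 of 21 (28.6%), against 4.66% and 8.08%. CACGTG was in 2 of 21 (9.52%), against 7.24% and 9.83%. Over all 66 measured genes of the 6 meiotic lists with an entry, called or not, the shares were 18.2% for CNCCTCAG, 22.7% for GCGGGAA and 15.2% for CACGTG, so the first 2 were near those of the genes that rose and the last was above it. Over all higher genes with an entry, 246 of 302, the shares were 14.2% for CNCCTCAG, 8.94% for CACGTG and 9.35% for GCGGGAA. Over the 183 lower genes with an entry they were 10.4%, 7.10% and 8.74%. A match is a run of letters, not a measured binding site. The 3 promoters printed are those of the core meiotic genes called higher that hold CNCCTCAG or CACGTG in the 250 bases before the start, 5′ to 3′ on the strand of the gene, with matches in capitals. Msh5 (chr17:35046623-35046872, minus strand) holds a reverse match of CNCCTCAG that begins 82 bases before the start and GCGGGAA at 65 bases. Hormad2 (chr11:4441083-4441332, minus strand) holds a reverse match of CNCCTCAG at 109 bases, and Sycp1 (chr3:102936101-102936350, minus strand) holds CACGTG at 94 bases.
Msh5: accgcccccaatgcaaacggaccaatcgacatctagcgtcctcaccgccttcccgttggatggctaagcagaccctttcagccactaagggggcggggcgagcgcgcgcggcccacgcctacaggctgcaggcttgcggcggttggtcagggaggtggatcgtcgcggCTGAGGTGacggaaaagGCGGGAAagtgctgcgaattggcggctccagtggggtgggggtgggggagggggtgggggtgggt
Hormad2: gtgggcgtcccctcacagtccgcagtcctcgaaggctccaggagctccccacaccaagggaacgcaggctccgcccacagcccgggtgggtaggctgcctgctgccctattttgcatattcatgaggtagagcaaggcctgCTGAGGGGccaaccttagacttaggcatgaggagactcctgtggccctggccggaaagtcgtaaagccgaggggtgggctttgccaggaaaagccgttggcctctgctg
Sycp1: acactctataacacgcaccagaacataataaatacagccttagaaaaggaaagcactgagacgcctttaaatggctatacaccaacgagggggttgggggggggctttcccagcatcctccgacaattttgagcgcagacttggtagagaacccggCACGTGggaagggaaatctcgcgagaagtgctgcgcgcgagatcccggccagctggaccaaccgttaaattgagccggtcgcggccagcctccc

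Of 24 measured pachytene genes 1 (4.17%) was higher, against 2.41% of all genes, and none was lower (median 0.15). The higher one was Calr3, a chaperone of spermatogenic cells, which stood at 6.67, 6.49 and 6.33 at 7.5 dpp and 7.79, 7.42 and 7.37 at 11.5 dpp and rose by 1.03 ± 0.32, limma adjusted p = 0.0358. Calr3 lost its call without replicate 1 of 7.5 dpp, replicate 2 of 7.5 dpp, replicate 3 of 7.5 dpp, replicate 1 of 11.5 dpp or replicate 3 of 11.5 dpp (limma adjusted p from 0.061 to 0.153). Further kept probes of Calr3, detected on all arrays of both ages, differed by 0.73 and 0.53. None of 24 measured spermatid genes was called, which with 4.38% of all genes called does not set the list apart. Of the 24, 6 were detected on any array of 7.5 dpp and 9 on any of 11.5 dpp. Prm1, Acrv1 and Pgk2, genes of spermatids and late spermatocytes, were below detection on all 6 arrays. Ldhc, the lactate dehydrogenase of spermatocytes, varied widely at 7.5 dpp, with 5.13, 6.84 and 9.55 at 7.5 dpp and 8.67, 6.43 and 8.15 at 11.5 dpp. Replicate 3 of 7.5 dpp was the highest of all 6 arrays, so the groups overlapped, and the difference of 0.58 ± 1.34 (limma adjusted p = 0.85) was not called. Piwil1, the PIWI protein of pachytene cells, had the same order at 7.5 dpp, with 7.20, 7.96 and 8.85 at 7.5 dpp and 7.94, 7.54 and 8.07 at 11.5 dpp (-0.15 ± 1.12, limma adjusted p = 0.96). The mean log2 signal of the pachytene list was 6.41, 6.73 and 7.28 at 7.5 dpp and 7.08, 6.91 and 7.13 at 11.5 dpp, so the highest array was a younger one.

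Of 21 measured genes of the piRNA pathway, which silences transposons in germ cells, none was called (median 0.18). With 4.38% of all genes called, this count does not set the pathway apart, and leaving out replicate 3 of 7.5 dpp gave 2 higher members. Piwil2 stood at 11.10, 11.49 and 11.93 at 7.5 dpp and 11.03, 11.81 and 11.71 at 11.5 dpp (0.01 ± 0.30, limma adjusted p = 0.99), and Piwil4 at 6.31, 7.37 and 7.56 at 7.5 dpp and 6.61, 7.08 and 7.40 at 11.5 dpp (-0.05 ± 0.30, limma adjusted p = 0.946). Ddx4, the germ cell RNA helicase, stood at 7.02, 8.52 and 8.75 at 7.5 dpp and 7.48, 7.88 and 8.72 at 11.5 dpp (-0.07 ± 0.50, limma adjusted p = 0.959). Mov10l1, the helicase that starts piRNA processing, stood at 10.11, 10.48 and 10.88 at 7.5 dpp and 11.02, 11.48 and 11.69 at 11.5 dpp. Its groups did not overlap, but its difference of 0.90 ± 0.30 (limma adjusted p = 0.051) missed both parts of the call.

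Of 17 measured germline genes known to be silenced by DNA methylation in somatic cells, 4 were higher, Sycp1 among them, and none lower (median 0.60). The higher share was 23.5%, against 2.41% of all genes. Tex101, a surface glycoprotein of germ cells, stood at 7.27, 7.83 and 8.19 at 7.5 dpp and 10.56, 9.22 and 10.79 at 11.5 dpp and rose by 2.42 ± 0.34, limma adjusted p = 1.59e-05. Rhox13, a germ cell homeobox gene, stood at 9.58, 9.93 and 10.00 at 7.5 dpp and 11.51, 10.75 and 11.06 at 11.5 dpp and rose by 1.27 ± 0.21, limma adjusted p = 0.000136. Brdt, the testis bromodomain protein, stood at 7.07, 7.35 and 7.78 at 7.5 dpp and 8.92, 8.22 and 9.15 at 11.5 dpp and rose by 1.36 ± 0.39, limma adjusted p = 0.0234. Its call was lost without replicate 1 of 7.5 dpp, replicate 2 of 7.5 dpp, replicate 1 of 11.5 dpp or replicate 3 of 11.5 dpp (limma adjusted p from 0.0628 to 0.12). A second kept probe of Brdt, detected on all arrays of both ages, differed by 0.57. Differentiating spermatogonia gave 2 higher members of 13 (15.4%, against 2.41% of all genes), Rhox13 and Prss50, and 1 lower (7.69%, against 1.97%). The lower one was Ccnd2, cyclin D2, which stood at 11.10, 10.30 and 10.32 at 7.5 dpp and 8.67, 9.02 and 8.77 at 11.5 dpp and fell by 1.75 ± 0.28 (limma adjusted p = 8.04e-05). Kit, the receptor that marks differentiating spermatogonia, had means of 11.38 ± 0.44 (SD, n = 3) at 7.5 dpp and 11.37 ± 0.67 at 11.5 dpp (-0.01 ± 0.36, limma adjusted p = 0.989).

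Undifferentiated spermatogonia gave 3 lower (12.5%, against 1.97% of all genes) and 1 higher (4.17%, against 2.41%) member of 24, with a median of -0.44. The 3 lower genes encode transcription factors, and Egr2 and Egr4 are of the same family as the immediate early gene Egr1. Lhx1 stood at 8.08, 6.96 and 7.18 at 7.5 dpp and 4.55, 6.07 and 4.93 at 11.5 dpp and fell by 2.22 ± 0.26 (limma adjusted p = 9.26e-07), detected on 1 array of 11.5 dpp, replicate 2. Egr2 stood at 8.55, 8.02 and 7.98 at 7.5 dpp and 6.87, 7.24 and 6.73 at 11.5 dpp and fell by 1.24 ± 0.29 (limma adjusted p = 0.00465). Egr4 stood at 10.41, 10.24 and 10.00 at 7.5 dpp and 9.25, 9.57 and 8.46 at 11.5 dpp and fell by 1.12 ± 0.31 (limma adjusted p = 0.0179). Egr4 lost its call without replicate 1 of 7.5 dpp or replicate 3 of 11.5 dpp (limma adjusted p from 0.0887 to 0.14). The list of immediate early and heat shock genes, given further on, had a lower mean log2 signal on each array of 11.5 dpp (8.17 to 8.40) than on any of 7.5 dpp (8.71 to 9.07), and its part in the values of Egr2 and Egr4 was not tested. Ret, the receptor for GDNF, stood at 8.96, 9.57 and 9.55 at 7.5 dpp and 8.04, 8.90 and 8.15 at 11.5 dpp, and all arrays of 11.5 dpp were below those of 7.5 dpp. Its difference of -0.99 ± 0.29 (limma adjusted p = 0.0232) was just under 2-fold and not called. Zbtb16, known as PLZF, stood at 7.19, 7.34 and 7.57 at 7.5 dpp and 6.90, 6.73 and 6.18 at 11.5 dpp (-0.76 ± 0.23, limma adjusted p = 0.0337), and Nanos2, a translational repressor of stem cells, at 6.97, 6.65 and 6.93 at 7.5 dpp and 6.40, 6.08 and 6.06 at 11.5 dpp (-0.67 ± 0.26, limma adjusted p = 0.105). Utf1 moved against the list, from below detection at 7.5 dpp, with 4.78, 5.05 and 4.93 at 7.5 dpp and 7.39, 5.66 and 5.91 at 11.5 dpp, highest on replicate 1 of 11.5 dpp. The fold was at least 1.60 (1.41 ± 0.37, limma adjusted p = 0.0129). Utf1 was not called without replicate 1 of 7.5 dpp or replicate 1 of 11.5 dpp (limma adjusted p from 0.0632 to 0.165). Gfra1 was not measured here.

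Retinoic acid genes gave 2 higher (11.8%, against 2.41% of all genes) and no lower members of 17 (median 0.18). Without replicate 1 of 11.5 dpp 1 was higher and the median turned to -0.01. Aldh1a2, which makes retinoic acid, stood at 7.65, 7.44 and 8.06 at 7.5 dpp and 9.06, 8.36 and 9.16 at 11.5 dpp and rose by 1.14 ± 0.25, limma adjusted p = 0.00244. Cyp26a1, which breaks it down, stood at 4.88, 5.72 and 5.72 at 7.5 dpp and 6.92, 5.93 and 7.53 at 11.5 dpp, lowest at 11.5 dpp on replicate 2, and rose by 1.35 ± 0.37, limma adjusted p = 0.0166. Cyp26a1 was not called without replicate 1 of 7.5 dpp, replicate 1 of 11.5 dpp or replicate 3 of 11.5 dpp (limma adjusted p from 0.0711 to 0.132). Without replicate 3 of 11.5 dpp neither was called, since the difference of Aldh1a2 was then 0.99.

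**Figure D3:**
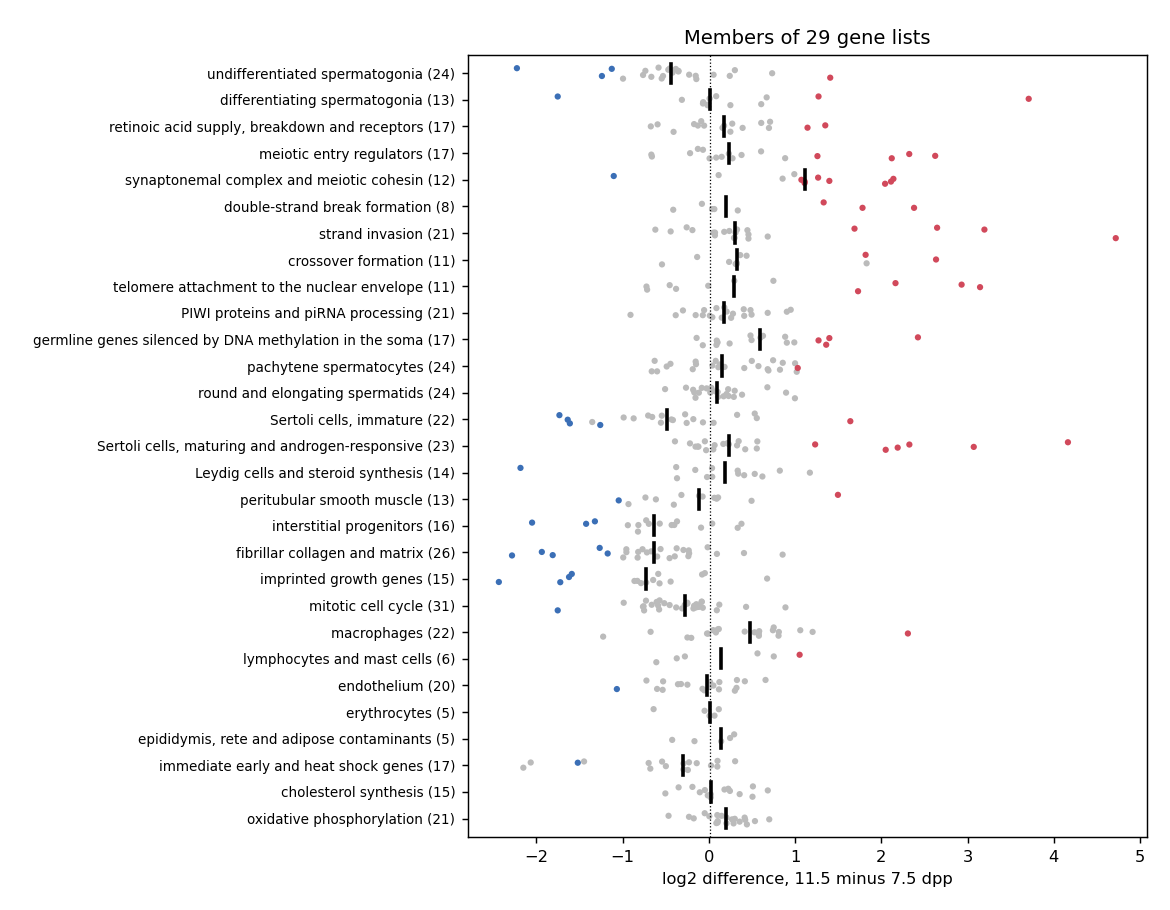
Log2 difference (11.5 minus 7.5 dpp, horizontal axis) of each measured member of 29 gene lists, 1 list per row with the number of measured members in brackets. Red and blue points are members called higher and lower, grey points the others, and the black bar is the median of the list. The synaptonemal complex and cohesin list has the highest median, 1.11, and the imprinted growth genes the lowest, -0.73.

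Sertoli cell genes gave calls in both directions, and most members of both Sertoli lists were not called. Of 23 measured genes of maturing, androgen-responsive Sertoli cells 6 were higher (26.1%, against 2.41% of all genes) and none lower (median 0.23), and 5 were higher without replicate 1 of 11.5 dpp. Beside Rhox5, B4galnt1, a ganglioside-synthesizing enzyme, stood at 5.42, 7.27 and 6.98 at 7.5 dpp and 10.06, 9.48 and 9.34 at 11.5 dpp and rose by 3.07 ± 0.31, limma adjusted p = 1.28e-07, while a second probe of the gene differed by 0.78. Drd4, a dopamine receptor gene, stood at 8.22, 9.58 and 8.41 at 7.5 dpp and 11.58, 10.94 and 10.67 at 11.5 dpp and rose by 2.33 ± 0.44, limma adjusted p = 0.000784. Eppin, a protease inhibitor, stood at 9.83, 10.78 and 10.40 at 7.5 dpp and 12.34, 12.48 and 12.33 at 11.5 dpp and rose by 2.05 ± 0.26, limma adjusted p = 3.56e-06, with its 11.5 dpp arrays close together. Corin, a membrane serine protease, stood at 6.43, 6.63 and 6.41 at 7.5 dpp and 8.08, 9.29 and 8.66 at 11.5 dpp and rose by 2.19 ± 0.49, limma adjusted p = 0.00357, with replicate 2 here the highest of its age. Tsx, a Sertoli gene of the X chromosome, went from 4.80 ± 0.21 (SD, n = 3) at 7.5 dpp to 6.03 ± 0.67 at 11.5 dpp, undetected at the younger age, and rose at least 1.30-fold (1.23 ± 0.28, limma adjusted p = 0.00462). Tsx was not called without replicate 1 of 11.5 dpp (limma adjusted p = 0.073).

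Of 22 measured genes of immature Sertoli cells 4 were lower (18.2%, against 1.97% of all genes) and 1 was higher, with a median of -0.49, and 2 were lower without replicate 3 of 11.5 dpp. Gdnf, the growth factor that maintains stem spermatogonia, stood at 10.95, 10.26 and 9.93 at 7.5 dpp and 8.54, 9.21 and 8.56 at 11.5 dpp and fell by 1.61 ± 0.29 (limma adjusted p = 0.000346). Kitl, the ligand of KIT, stood at 7.66, 7.50 and 7.47 at 7.5 dpp and 6.50, 6.51 and 5.84 at 11.5 dpp and fell by 1.26 ± 0.30 (limma adjusted p = 0.00672). Kitl lost its call without replicate 3 of 11.5 dpp (limma adjusted p = 0.0558). Ncam1, a cell adhesion molecule, stood at 7.87, 6.90 and 7.44 at 7.5 dpp and 5.19, 6.09 and 6.01 at 11.5 dpp and fell by 1.64 ± 0.29 (limma adjusted p = 0.000361). A second kept probe of Ncam1, detected on 2 arrays of 7.5 dpp only, differed by -0.60. Hsd17b1, a steroid dehydrogenase, stood at 12.31, 11.53 and 10.61 at 7.5 dpp and 9.77, 10.40 and 9.08 at 11.5 dpp and fell by 1.73 ± 0.51 (limma adjusted p = 0.0267). Hsd17b1 was not called without replicate 1 of 7.5 dpp, replicate 2 of 7.5 dpp, replicate 1 of 11.5 dpp or replicate 3 of 11.5 dpp (limma adjusted p from 0.0677 to 0.177). Amh, the hormone of immature Sertoli cells, stood at 10.88, 10.12 and 9.93 at 7.5 dpp and 10.03, 9.42 and 8.52 at 11.5 dpp; the groups overlapped, since replicate 1 of 11.5 dpp lay above replicate 3 of 7.5 dpp. Its difference of -0.99 ± 0.49 (limma adjusted p = 0.208) was not called. Sox9, the factor that specifies Sertoli cells, stood at 13.06, 13.40 and 13.32 at 7.5 dpp and 12.34, 12.96 and 11.86 at 11.5 dpp, lower at 11.5 dpp on all arrays by under 2-fold (-0.87 ± 0.28, limma adjusted p = 0.0395). Gata1 moved against the list, with 5.80, 6.91 and 6.62 at 7.5 dpp and 8.64, 7.60 and 8.02 at 11.5 dpp, and rose by 1.64 ± 0.30, limma adjusted p = 0.000527; its second probe was below detection. Gata1 is a transcription factor that Sertoli cells of the mouse express from the first postnatal weeks.

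**Figure D4:**
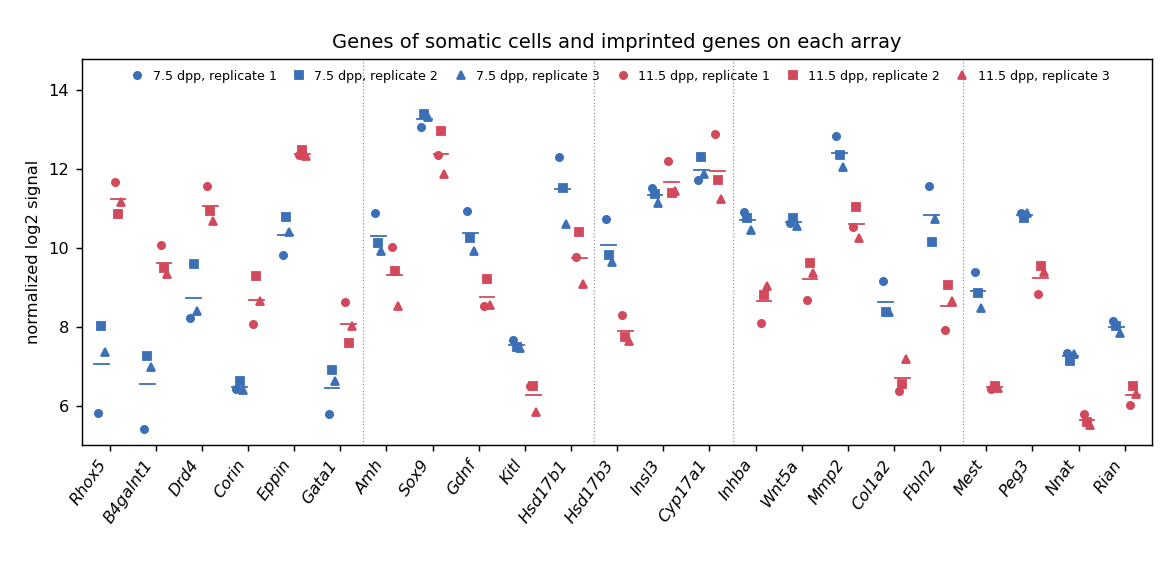
Normalized log2 signal (vertical axis) of 23 genes of somatic cells and imprinted genes on each array, blue for 7.5 dpp and red for 11.5 dpp, with the replicate shown by the shape of the point and the mean of 3 arrays by a bar. Dotted lines separate, from the left, Sertoli cell genes that rose, immature Sertoli genes, steroid and Leydig genes, stromal and matrix genes and imprinted genes; Amh, Sox9, Insl3 and Cyp17a1 were not called.

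Leydig cell and steroid genes gave 1 lower (7.14%, against 1.97% of all genes) and no higher member of 14. Their median was 0.19 and turned to -0.08 without replicate 1 of 11.5 dpp. The lower gene was Hsd17b3, which makes testosterone from androstenedione and which in fetal mice is a Sertoli cell gene, with 10.74, 9.83 and 9.65 at 7.5 dpp and 8.29, 7.74 and 7.64 at 11.5 dpp. It fell by 2.18 ± 0.55 (limma adjusted p = 0.00967) without overlap. Its call was lost without replicate 1 of 7.5 dpp (limma adjusted p = 0.0777). Insl3, the peptide hormone of Leydig cells, stood at 11.52, 11.37 and 11.13 at 7.5 dpp and 12.21, 11.38 and 11.45 at 11.5 dpp (0.34 ± 0.34, limma adjusted p = 0.587), and Cyp17a1, the androgen-forming lyase, at 11.72, 12.30 and 11.88 at 7.5 dpp and 12.89, 11.71 and 11.24 at 11.5 dpp (-0.02 ± 0.87, limma adjusted p = 0.994). Replicate 1 was the highest array of 11.5 dpp on both. Cyp11a1, the enzyme that starts steroid synthesis, stood at 7.36, 6.89 and 6.69 at 7.5 dpp and 7.18, 6.22 and 6.40 at 11.5 dpp (-0.38 ± 0.29, limma adjusted p = 0.457). Star, the cholesterol carrier, was near the limit of detection, with 5.53, 6.13 and 6.38 at 7.5 dpp and 7.05, 5.96 and 5.14 at 11.5 dpp (0.04 ± 0.40, limma adjusted p = 0.974). Hsd3b1 was detected on 1 array of each age, with 5.64, 5.04 and 4.84 at 7.5 dpp and 5.76, 4.97 and 4.90 at 11.5 dpp (0.04 ± 0.31, limma adjusted p = 0.962). The list's mean log2 signal was 8.48 on replicate 1 of 11.5 dpp and between 7.59 and 8.03 on the other 5 arrays.

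Some stromal genes were lower. Of 16 measured genes of interstitial progenitors 3 were lower (18.8%, against 1.97% of all genes) and none higher, with a median of -0.63. Inhba, the activin A subunit, stood at 10.91, 10.75 and 10.46 at 7.5 dpp and 8.11, 8.81 and 9.04 at 11.5 dpp and fell by 2.05 ± 0.28 (limma adjusted p = 1.04e-05). Wnt5a, a secreted signal, stood at 10.63, 10.76 and 10.54 at 7.5 dpp and 8.69, 9.62 and 9.36 at 11.5 dpp and fell by 1.42 ± 0.27 (limma adjusted p = 0.000666). Hhip, an inhibitor and target of hedgehog signalling, stood at 7.87, 7.67 and 7.24 at 7.5 dpp and 5.79, 6.59 and 6.43 at 11.5 dpp and fell by 1.32 ± 0.32 (limma adjusted p = 0.00647). On all of them the groups did not overlap and replicate 1 was the lowest array of 11.5 dpp. Its call was lost without replicate 1 of 11.5 dpp (limma adjusted p = 0.0644). Dlk1, an imprinted gene of these progenitors, stood at 14.37, 14.12 and 13.96 at 7.5 dpp and 13.21, 13.63 and 13.43 at 11.5 dpp, and its difference of -0.73 ± 0.31 (limma adjusted p = 0.132) was not called.

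Of 26 measured genes of fibrillar collagen and matrix 5 were lower (19.2%, against 1.97% of all genes) and none higher, again with a median of -0.63. Fbln2, a fibulin, stood at 11.57, 10.15 and 10.74 at 7.5 dpp and 7.92, 9.06 and 8.64 at 11.5 dpp and fell by 2.28 ± 0.42 (limma adjusted p = 0.000476). Col1a2, a chain of type I collagen, stood at 9.16, 8.38 and 8.38 at 7.5 dpp and 6.37, 6.54 and 7.19 at 11.5 dpp and fell by 1.94 ± 0.41 (limma adjusted p = 0.00215), while Col1a1, the other chain, stood at 11.34, 10.97 and 10.97 at 7.5 dpp and 10.46, 10.65 and 10.38 at 11.5 dpp (-0.60 ± 0.36, limma adjusted p = 0.325, not called). Mmp2, a gelatinase, stood at 12.84, 12.35 and 12.04 at 7.5 dpp and 10.52, 11.03 and 10.24 at 11.5 dpp and fell by 1.81 ± 0.38 (limma adjusted p = 0.00206). Col3a1 stood at 9.31, 8.65 and 8.83 at 7.5 dpp and 7.80, 7.77 and 7.43 at 11.5 dpp and fell by 1.27 ± 0.26 (limma adjusted p = 0.00175). Lox, the collagen cross-linking enzyme, stood at 9.35, 8.96 and 9.14 at 7.5 dpp and 7.70, 8.22 and 8.01 at 11.5 dpp and fell by 1.17 ± 0.31 (limma adjusted p = 0.0144). Lox was not called without replicate 1 of 7.5 dpp or replicate 1 of 11.5 dpp (limma adjusted p from 0.0774 to 0.0849). Each of the 5 was lower on every array of 11.5 dpp than on any array of 7.5 dpp.

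Imprinted growth genes, which are switched down after birth in many organs of the mouse, had a median of -0.73, the lowest of the 29 lists with all arrays. Without replicate 1 of 11.5 dpp it was -0.66 and the median of the fibrillar collagen and matrix list was the lowest, -0.68. Of 15 measured members 4 were lower (26.7%, against 1.97% of all genes) and none higher. Without that replicate 1 member, Peg10, was higher (1.04 ± 0.24, limma adjusted p = 0.00753). Mest stood at 9.38, 8.85 and 8.48 at 7.5 dpp and 6.43, 6.51 and 6.47 at 11.5 dpp, with its 11.5 dpp arrays close together, and fell by 2.43 ± 0.27 (limma adjusted p = 5.1e-07). Peg3 stood at 10.87, 10.76 and 10.89 at 7.5 dpp and 8.84, 9.53 and 9.38 at 11.5 dpp and fell by 1.59 ± 0.20 (limma adjusted p = 2.85e-06). Nnat stood at 7.33, 7.14 and 7.31 at 7.5 dpp and 5.80, 5.59 and 5.53 at 11.5 dpp and fell by 1.62 ± 0.22 (limma adjusted p = 1.09e-05). Rian, a noncoding RNA of the Dlk1 locus, stood at 8.14, 8.02 and 7.84 at 7.5 dpp and 6.02, 6.51 and 6.31 at 11.5 dpp and fell by 1.72 ± 0.24 (limma adjusted p = 1.5e-05). Igf2, the fetal growth factor, was lower on all arrays of 11.5 dpp, with 13.71, 13.81 and 13.57 at 7.5 dpp and 12.65, 12.92 and 12.94 at 11.5 dpp, but by under 2-fold (-0.86 ± 0.26, limma adjusted p = 0.0293). H19 was not measured here.

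Peritubular muscle genes gave 1 higher and 1 lower member of 13 (median -0.11). Each is 7.69% of the list, against 2.41% and 1.97% of all genes, and 1 gene each way does not set the list apart. Mustn1, a small nuclear protein of muscle and skeleton, stood at 5.15, 5.94 and 6.07 at 7.5 dpp and 7.63, 6.90 and 7.12 at 11.5 dpp and rose by 1.50 ± 0.47, limma adjusted p = 0.0387. Cald1, caldesmon, went from 5.92 ± 0.63 (SD, n = 3) at 7.5 dpp to 4.87 ± 0.30 at 11.5 dpp on its probe of highest mean (-1.04 ± 0.25, limma adjusted p = 0.00627), while the other 2 kept probes differed by -0.10 and -0.09, so the decrease rests on 1 of 3 probes. Mustn1 lost its call without replicate 1 of 7.5 dpp, replicate 2 of 7.5 dpp, replicate 1 of 11.5 dpp or replicate 3 of 11.5 dpp (limma adjusted p from 0.062 to 0.193). Cald1 was not called without replicate 1 of 7.5 dpp or replicate 1 of 11.5 dpp (limma adjusted p from 0.0575 to 0.0914). Acta2, smooth muscle actin, stood at 14.45, 14.68 and 14.76 at 7.5 dpp and 14.89, 14.63 and 14.57 at 11.5 dpp (0.06 ± 0.14, limma adjusted p = 0.839). Of 31 measured mitotic cell cycle genes none was higher and 1, Ccnd2, was lower (median -0.28). That is 3.23%, near the 1.97% of all genes, so the count does not set the list apart. Cdk1, the mitotic kinase, stood at 11.56, 11.01 and 10.95 at 7.5 dpp and 11.71, 10.57 and 10.79 at 11.5 dpp (-0.15 ± 0.24, limma adjusted p = 0.774).

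Of 22 measured macrophage genes 1 was higher (4.55%, against 2.41% of all genes). This was H2-Ab1, a chain of MHC class II, with 5.55, 4.47 and 4.73 at 7.5 dpp and 7.07, 6.59 and 8.01 at 11.5 dpp (2.31 ± 0.65, limma adjusted p = 0.0205). Its other 2 probes differed by 1.45 and 1.13, and 1 of them was detected on 1 array of 7.5 dpp. H2-Ab1 was not called without replicate 2 of 7.5 dpp, replicate 3 of 7.5 dpp, replicate 1 of 11.5 dpp or replicate 3 of 11.5 dpp (limma adjusted p from 0.0542 to 0.107). Among other class II genes of the list H2-Eb1 differed by -0.20 and Cd74 by 0.12, and neither was called. Adgre1, the F4/80 antigen of macrophages, stood at 6.53, 6.20 and 5.79 at 7.5 dpp and 6.63, 5.81 and 5.35 at 11.5 dpp (-0.25 ± 0.45, limma adjusted p = 0.799). The macrophage list's mean log2 signal was 7.33, 7.21 and 6.92 at 7.5 dpp and 7.89, 7.47 and 7.24 at 11.5 dpp, and its median difference went from 0.47 to 0.14 without replicate 1 of 11.5 dpp. Of 6 measured lymphocyte and mast cell genes 1 was higher (16.7%, against 2.41% of all genes), the T cell gene Cd3e. It stood at 5.74, 5.57 and 5.54 at 7.5 dpp and 7.03, 6.58 and 6.40 at 11.5 dpp (1.05 ± 0.32, limma adjusted p = 0.034). Cd3e was not called without replicate 1 of 7.5 dpp, replicate 2 of 7.5 dpp, replicate 3 of 7.5 dpp or replicate 1 of 11.5 dpp (limma adjusted p from 0.0771 to 0.167). Of 20 measured endothelial genes 1 was lower (5%, against 1.97% of all genes), Robo4, with 10.66, 10.91 and 11.27 at 7.5 dpp and 10.00, 10.10 and 9.55 at 11.5 dpp, which fell by 1.07 ± 0.26 (limma adjusted p = 0.00776). Without replicate 3 of either age the difference of Robo4 was -0.91 and -0.90, under 2-fold, and it was not called. Pecam1, the general marker of endothelium, stood at 7.36, 7.42 and 7.66 at 7.5 dpp and 7.38, 6.98 and 7.34 at 11.5 dpp (-0.25 ± 0.31, limma adjusted p = 0.693). None of 5 measured erythrocyte genes was called, which with 4.38% of all genes called does not set them apart. Hba-a1, an alpha globin, stood at 13.14, 14.26 and 13.66 at 7.5 dpp and 14.25, 13.42 and 13.24 at 11.5 dpp (-0.05 ± 0.73, limma adjusted p = 0.984).

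Of the metabolic and stress lists, none of 15 cholesterol synthesis genes and none of 21 oxidative phosphorylation genes was called (medians 0.02 and 0.20). Over all genes 4.38% were called, so these counts do not set either list apart. Of 17 immediate early and heat shock genes 1 was called lower (5.88%, against 1.97% of all genes), Jun, with 9.27, 9.83 and 10.03 at 7.5 dpp and 7.89, 8.59 and 8.09 at 11.5 dpp, and fell by 1.52 ± 0.34 (limma adjusted p = 0.0036). Other members had differences of like or larger size that missed the threshold. Fos stood at 9.07, 10.61 and 10.64 at 7.5 dpp and 8.73, 7.09 and 8.05 at 11.5 dpp (-2.15 ± 0.85, limma adjusted p = 0.104). Fosb stood at 5.75, 7.83 and 7.46 at 7.5 dpp and 4.62, 5.05 and 5.17 at 11.5 dpp (-2.06 ± 0.70, limma adjusted p = 0.0555). Egr1 stood at 12.11, 12.31 and 12.52 at 7.5 dpp and 11.03, 10.69 and 10.89 at 11.5 dpp (-1.45 ± 0.50, limma adjusted p = 0.0588). On all of these every array of 11.5 dpp was below every array of 7.5 dpp. Such genes respond to the handling of tissue, and the list's mean log2 signal was 8.71, 8.92 and 9.07 at 7.5 dpp and 8.40, 8.32 and 8.17 at 11.5 dpp. The part of handling in this difference was not tested.

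The deepest decreases, ranked among called genes whose groups did not overlap, were those of Zg16 and Cbln4. Zg16, a secretory granule lectin, stood at 9.17, 8.70 and 8.44 at 7.5 dpp and 4.46, 4.86 and 4.54 at 11.5 dpp, undetected at the older age and at least 9.87-fold lower (-4.15 ± 0.66, limma adjusted p = 8.26e-05). Cbln4, a secreted cerebellin, stood at 9.98, 9.02 and 8.80 at 7.5 dpp and 4.56, 5.97 and 4.87 at 11.5 dpp and fell by 4.13 ± 0.67 (limma adjusted p = 0.000108), with replicate 2 the only array of 11.5 dpp on which it was detected. Nudt6, a nudix hydrolase gene, stood at 8.17, 8.35 and 8.45 at 7.5 dpp and 5.02, 4.64 and 5.09 at 11.5 dpp and was at least 7.22-fold lower (-3.41 ± 0.81, limma adjusted p = 0.00589). Adamts16, a secreted metalloprotease, stood at 8.34, 6.88 and 6.43 at 7.5 dpp and 4.70, 4.97 and 4.60 at 11.5 dpp and was at least 3.36-fold lower (-2.46 ± 0.24, limma adjusted p = 7.74e-08). On each of them every array of 7.5 dpp was above every array of 11.5 dpp, as the ranking required. Tm7sf3, a membrane protein gene, stood at 7.43, 6.82 and 6.83 at 7.5 dpp and 4.40, 4.56 and 4.34 at 11.5 dpp, undetected at the older age and at least 2.94-fold lower (-2.59 ± 0.78, limma adjusted p = 0.0305). Its call was lost without replicate 1 of 7.5 dpp, replicate 2 of 7.5 dpp, replicate 3 of 7.5 dpp, replicate 1 of 11.5 dpp or replicate 3 of 11.5 dpp (limma adjusted p from 0.0569 to 0.121). Epha2, a receptor kinase, stood at 8.66, 8.03 and 7.78 at 7.5 dpp and 5.54, 6.46 and 5.15 at 11.5 dpp and fell by 2.44. Krt8, a keratin, stood at 8.76, 8.08 and 7.43 at 7.5 dpp and 5.77, 5.73 and 5.63 at 11.5 dpp and fell by 2.38, and Lgals7, a galectin, stood at 11.22, 10.33 and 9.97 at 7.5 dpp and 8.35, 8.32 and 7.93 at 11.5 dpp and fell by 2.31. Named by the same rule were 3 further genes. Kcna6, a potassium channel, stood at 10.05, 9.79 and 9.77 at 7.5 dpp and 7.37, 8.31 and 7.11 at 11.5 dpp and fell by 2.27. Defb42, a beta defensin, stood at 9.12, 9.38 and 8.78 at 7.5 dpp and 6.14, 6.87 and 6.61 at 11.5 dpp and fell by 2.55. Fam155a went from 7.85 ± 1.73 (SD, n = 3) at 7.5 dpp to 5.26 ± 0.22 at 11.5 dpp and fell by 2.59. Its call was lost without replicate 1 of 7.5 dpp (limma adjusted p = 0.0674).

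The named increases and decreases were then placed among the other in vivo ages, as mean ± SD of 3 arrays (2 at 13.5 dpp) and with no test. At 9.5 dpp 22 of the 25 raised meiotic genes had a mean between those of 7.5 and 11.5 dpp, and 3 were already above their 11.5 dpp mean. At 14.5 dpp 20 of the 25 were above their 11.5 dpp mean. These places were not counted over all 302 higher genes, so the counts do not set the meiotic genes apart. Meiob went from 5.14 ± 0.43 at 7.5 dpp to 8.17 ± 1.07 at 9.5 dpp, 9.86 ± 1.27 at 11.5 dpp and 11.69 ± 0.16 at 14.5 dpp. Stra8 did not follow them, with 6.24 ± 0.43 at 7.5 dpp, 7.52 ± 0.28 at 9.5 dpp, 7.50 ± 0.59 at 11.5 dpp and 6.54 ± 0.35 at 14.5 dpp, so its mean at 9.5 dpp was about that of 11.5 dpp and it was lower by 14.5 dpp. Mei1 likewise had a lower mean at 14.5 than at 11.5 dpp, with 6.42 ± 0.43 at 7.5 dpp, 7.83 ± 0.67 at 9.5 dpp, 8.20 ± 0.30 at 11.5 dpp and 7.74 ± 0.55 at 14.5 dpp.

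Ldhc, not called between 7.5 and 11.5 dpp, reached 13.87 ± 0.50 at 14.5 dpp, and Piwil1 reached 12.88 ± 0.33. Among Sertoli genes Rhox5 was already higher in mean at 9.5 dpp, with 7.07 ± 1.12 at 7.5 dpp, 9.29 ± 0.88 at 9.5 dpp, 11.24 ± 0.41 at 11.5 dpp and 10.56 ± 0.02 at 14.5 dpp. Corin was still near its starting mean at 9.5 dpp, with 6.49 ± 0.13 at 7.5 dpp, 6.66 ± 0.76 at 9.5 dpp, 8.68 ± 0.60 at 11.5 dpp and 9.17 ± 0.03 at 14.5 dpp. Amh, not called here, continued down to 7.51 ± 0.33 at 14.5 dpp. For Inhba most of the difference in means lay before 9.5 dpp, with 10.70 ± 0.23 at 7.5 dpp, 8.85 ± 0.51 at 9.5 dpp, 8.66 ± 0.49 at 11.5 dpp and 7.39 ± 0.19 at 14.5 dpp. The mean of Mest was lower at each of these ages than at the one before, with 8.90 ± 0.45 at 7.5 dpp, 7.53 ± 0.27 at 9.5 dpp, 6.47 ± 0.04 at 11.5 dpp and 5.46 ± 0.32 at 14.5 dpp. For Hsd17b3 most of the difference lay after 9.5 dpp, with 10.07 ± 0.59 at 7.5 dpp, 9.73 ± 1.07 at 9.5 dpp, 7.89 ± 0.35 at 11.5 dpp and 6.89 ± 0.24 at 14.5 dpp.

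**Figure D5:**
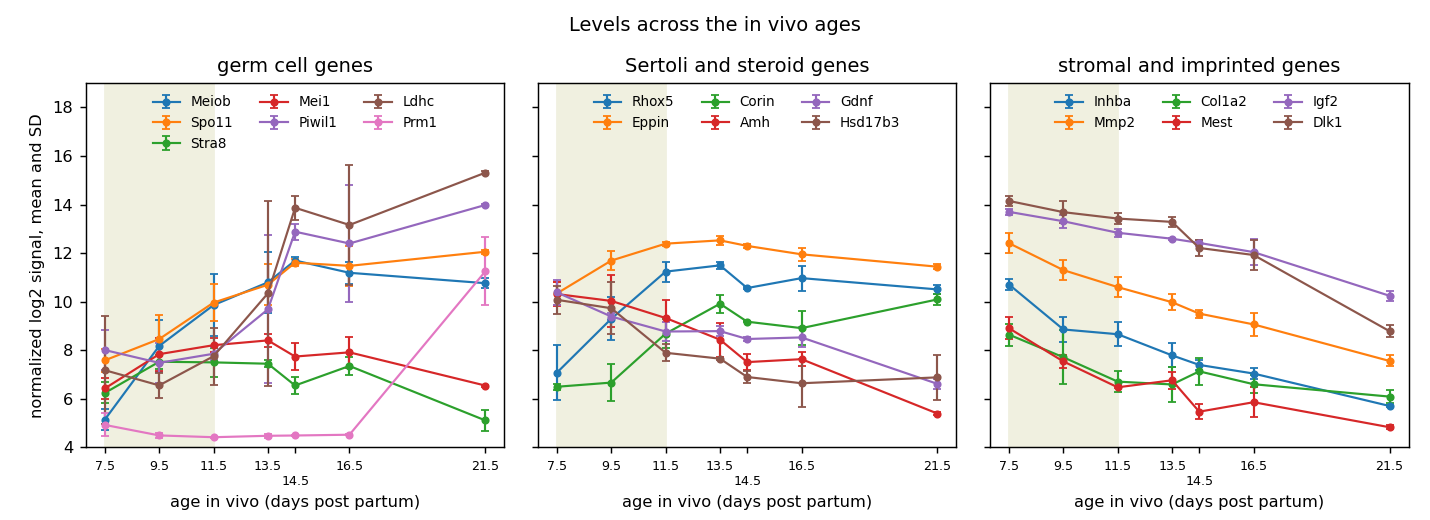
Normalized log2 signal (vertical axis, mean and SD of 3 arrays, 2 at 13.5 dpp) against age in vivo in days post partum for 7 germ cell genes, 6 Sertoli and steroid genes and 6 stromal and imprinted genes. The shaded band marks 7.5 to 11.5 dpp, within which Meiob and Rhox5 climb and Inhba and Mest fall, while Ldhc, Piwil1 and Prm1 climb only later.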

How the data were processed

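Total RNA of 39 mouse testis samples in 13 groups was measured on 1-colour Illumina arrays. The deposited table gives an intensity and a detection p-value per probe and array, not normalized between arrays, per the file headers. A second deposited table holds the authors' log2 values, made with lumi per the submitters' processing notes; its version and steps were not given in the sources used here. One signal column (1) carries no sample name and was not used, leaving 38 arrays.

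Intensities were background corrected and quantile normalized with neqc (offset 16) in limma 3.58.1 under R 4.3.3. Of 45281 probes, 23665 had a detection p below 0.01 on at least 3 arrays, and 19924 of these had 1 gene symbol in the platform's annotation. This gave 12518 genes, 4961 of them with several kept probes, of which the one with the highest mean over all arrays was used. A limma model with a mean for each group was fitted to all groups together and moderated by eBayes with an intensity trend, on 25 residual degrees of freedom, and p-values were adjusted over all genes. The number of arrays limits the precision.

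The genes named with values were a core list of 66 genes, of which 54 were measured, the 15 largest non-overlapping differences in each direction, up to 6 called members of each of 29 gene lists in each direction, and members that moved against their list. The members and lists were chosen with earlier results of these data known. Of 89 called genes so named, 27 had several kept probes. For 26 all of these differed in the same direction, Casp9 being the exception, and for 15 all differed by at least 1. Those with a kept probe under 1 were B4galnt1, Brdt, Cacng5, Cald1, Calr3, Casp9, Gata1, Lgals7, Msh5, Mybpc1, Ncam1 and Wnt5a. Same-numbered arrays of the 2 ages deviated together with correlations of 0.12, 0.010 and 0.23, against -0.19 to 0.019 for differently numbered arrays. The labels give a replicate number but name no pairing, so the main fit did not treat the numbers as pairs. A fit with the number as a block is given further on. The fit was tested on simulated data of 12518 genes, in which it called 86% of genes changed by 1.5 on the log2 scale and 99% of those changed by 3 in the right direction, and 5 unchanged genes. Noise was drawn for each gene on its own, so shifts shared by many genes of an array were not simulated. These rates therefore need not hold on the real arrays. Alternatives covered normalization, background, filters, the arrays fitted, array weights, a replicate block, probe choice and leaving out each array. Some results are not reported here.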

Additional observations from a re-analysis of the deposited data

How the results depend on the processing

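The counts, 302 higher and 246 lower, changed with the processing. No background correction gave 159 and 140, an offset of 50 gave 188 and 164, and the authors' deposited log2 values gave 80 and 64; the cause was not tested. With no minimum fold, by construction a looser rule, 711 were higher and 614 lower. Leaving out each array in turn gave from 208 to 404 higher and from 155 to 376 lower genes, lowest without replicate 1 of 7.5 dpp and highest without replicate 2 of 11.5 dpp. The other settings gave from 252 to 314 higher and from 198 to 252 lower; among them the replicate block gave 311 and 252 and kept all 302 and 246. The 25 higher meiotic genes numbered from 20 to 28 under all settings except the authors' values, which gave 11. Of the 89 called genes named, 62 kept their call in all 6 fits without 1 array (Adamts16, not among them, had a value in 3 fits and was called in those), 46 with the authors' values and 71 with no background correction, and every one of them that had a value kept its direction in every setting. A larger offset by construction shrinks the differences of dim genes, and for genes below detection at 1 age only a bound is given.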
